A study of Mus musculus with 8 samples.

Results

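The 10 genes described here belong to the integrated stress response and were taken from the deposited count table by their symbols: Atf4, Atf3, Ddit3, Ppp1r15a, Ppp1r15b, Trib3, Asns, Chac1, Sesn2 and Gdf15. All 10 had a row among the 53819 symbols of the table. The gene Gdf15 was too low to test, and the other 9 were among the 14070 genes with enough counts. Messenger RNA had been measured in the quadriceps muscle of wild-type C57BL/6J mice, 8 weeks old at the start. The 4 tumor mice had received 500000 cells of the head and neck squamous cell carcinoma line B0092 under the skin of the neck, and the 4 control mice had received the saline vehicle. Muscle of all mice was collected on day 36. For the tumor mice the labels set the time of collection by a weight loss of about 10%, and no weight loss of each mouse was used here. Labels of both groups name the B0092 line, including those of the control mice that received vehicle alone. Each library came from 1 mouse, and all tumors came from 1 cell line.

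The integrated stress response begins when kinases that sense amino acid shortage, unfolded proteins, haem shortage or mitochondrial damage, or double-stranded RNA phosphorylate the translation factor eIF2. Phosphorylated eIF2 blocks its exchange factor eIF2B, which slows protein synthesis while a small set of messages, with Atf4 at their head, is translated more. The factor ATF4 then switches on genes for amino acid supply and further stress factors, and a phosphatase that holds the Ppp1r15a product removes the phosphate and lets translation resume. Much of the control of ATF4 lies in translation, which counts of messenger RNA do not measure. In muscle, ATF4 is known as a promoter of atrophy during fasting and disuse.

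ATF4 pairs with C/EBP factors on a composite DNA element, and the stretches before the start sites of 4 members are shown because they hold this element or the related cAMP response element. The composite element was searched as TGATGNAA and the cAMP response element as TGACGTCA, on both strands, in the 250 bases before each RefSeq start site (build GRCm38.p6). No match of one element overlapped a match of the other in these windows. The composite element occurred before 3.91% of the 27025 genes with a listed promoter and the cAMP response element before 1.77%. Of the 10 members, 9 had an entry (not Ppp1r15b). Capitals mark the matches, and each stretch reads 5′ to 3′ on the strand of its gene. The Ppp1r15a stretch lies at chr7:45526269-45526518 on the minus strand, the Chac1 stretch at chr2:119350992-119351241 on the plus strand, the Asns stretch at chr6:7693210-7693459 on the minus strand and the Atf3 stretch at chr1:191183334-191183583 on the minus strand.
Ppp1r15a: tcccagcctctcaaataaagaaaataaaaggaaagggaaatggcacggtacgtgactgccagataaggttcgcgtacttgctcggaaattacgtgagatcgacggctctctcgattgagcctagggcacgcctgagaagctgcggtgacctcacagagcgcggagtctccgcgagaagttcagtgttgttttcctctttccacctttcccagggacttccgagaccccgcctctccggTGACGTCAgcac
Chac1: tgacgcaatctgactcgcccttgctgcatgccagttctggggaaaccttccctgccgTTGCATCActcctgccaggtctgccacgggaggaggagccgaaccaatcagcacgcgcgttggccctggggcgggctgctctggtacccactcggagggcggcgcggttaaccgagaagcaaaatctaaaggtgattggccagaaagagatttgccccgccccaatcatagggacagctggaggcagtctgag
Asns: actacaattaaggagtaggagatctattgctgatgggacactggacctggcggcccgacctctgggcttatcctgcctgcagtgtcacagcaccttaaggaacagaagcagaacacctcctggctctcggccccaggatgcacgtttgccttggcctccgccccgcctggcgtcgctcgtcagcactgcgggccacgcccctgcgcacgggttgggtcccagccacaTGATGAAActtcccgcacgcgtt
Atf3: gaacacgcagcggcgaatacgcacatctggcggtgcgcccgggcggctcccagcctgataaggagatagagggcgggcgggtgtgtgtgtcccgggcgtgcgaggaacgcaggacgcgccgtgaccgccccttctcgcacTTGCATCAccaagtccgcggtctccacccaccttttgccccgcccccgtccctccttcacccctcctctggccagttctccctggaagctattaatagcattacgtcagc
The match of Ppp1r15a was a full cAMP response element whose first base lay 12 bases before the start site. Composite elements began 193 bases before the start of Chac1, 23 bases before that of Asns and 110 bases before that of Atf3. Those of Chac1 and Atf3 read in the reverse direction. Neither element was found in the windows of Atf4, Ddit3, Trib3, Sesn2 or Gdf15. The endoplasmic reticulum stress element, which occurred before 0.13% of genes, was found in none of the members' windows.

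The libraries held 28436254 to 36139478 estimated counts. Values are given as counts per 1000000 (CPM) after scaling by TMM factors. Groups were compared with the edgeR quasi-likelihood test over all 14070 genes, Benjamini-Hochberg adjusted, with a threshold of 0.05. Of all tested genes, 19.8% passed, 11.0% higher and 8.73% lower in tumor mice, and groups did not overlap in 25.0%. With upper-quartile scaling 1169 genes were higher and 1547 lower, against 1552 and 1229 with TMM scaling. When a library was left out, higher and lower genes numbered 708 and 482 without tumor 3, 630 and 480 without control 1, 760 and 613 without control 2, and 1004 and 854 without control 3. Tumor library 2 and control library 4 stood apart in fibre type: Myh4, the fast myosin, took 80.3% of adult myosin heavy chain counts in tumor 2 and 64.6% in control 4. The remaining libraries had 95.2% to 98.9% (tumor) and 88.5% to 98.0% (control). All 8 muscle fibre markers were present, with sums of 99718 to 187151 CPM in tumor and 123492 to 181128 CPM in control mice. Of 8 squamous epithelial markers, 4 were at 0 in all 8 libraries (Krt5, Krt14, Krt6a and Dsg3), Krt16 had 3 counts in 1 control, and Trp63 made up nearly all of the summed level (15.7 to 36.3 CPM in tumor and 6.51 to 9.53 CPM in control mice). Summed fibroblast markers (5 of 5 tested) ran from 166 to 362 CPM in tumor and 394 to 560 CPM in control mice, and summed endothelial markers (5 of 5 tested) from 70.6 to 118 and 133 to 200 CPM. Satellite cell markers (2 of 3 tested) summed to 2.14 to 4.33 CPM in tumor and 3.47 to 3.86 CPM in control mice, and Schwann cell markers (4 of 4 tested) to 6.20 to 26.1 and 5.64 to 30.7 CPM. In such bulk libraries fewer cells of a type and less RNA per cell cannot be told apart, and the part of these cell types in the members' values was not tested.

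Of the 9 tested members, 1 rose, Ppp1r15a, and 0 fell (edgeR), against 11.0% and 8.73% of all tested genes. At an unadjusted p under 0.05 there were 3 of 9, Ppp1r15a, Chac1 and Ddit3, a share near the 35.0% of all tested genes at that level. DESeq2 called 1 member higher and 1 lower (14.0% and 12.5% of all genes with an adjusted p), and limma-voom 1 and 0 (10.5% and 9.15% of all genes). The groups did not overlap in 1 of the 9 members, against 25.0% of all tested genes. The fold change was positive in 8 members and negative in 1, with a median of 0.32 on the log2 scale, against 0.00 over all tested genes. Every tumor mouse exceeded every control in Ppp1r15a, tumor mice exceeded controls in 14 of 16 pairs in Chac1 and in 2 of 16 pairs in Ddit3, and in Atf4 and Atf3 in 11 and 6 of 16 pairs.

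**Figure D1:**
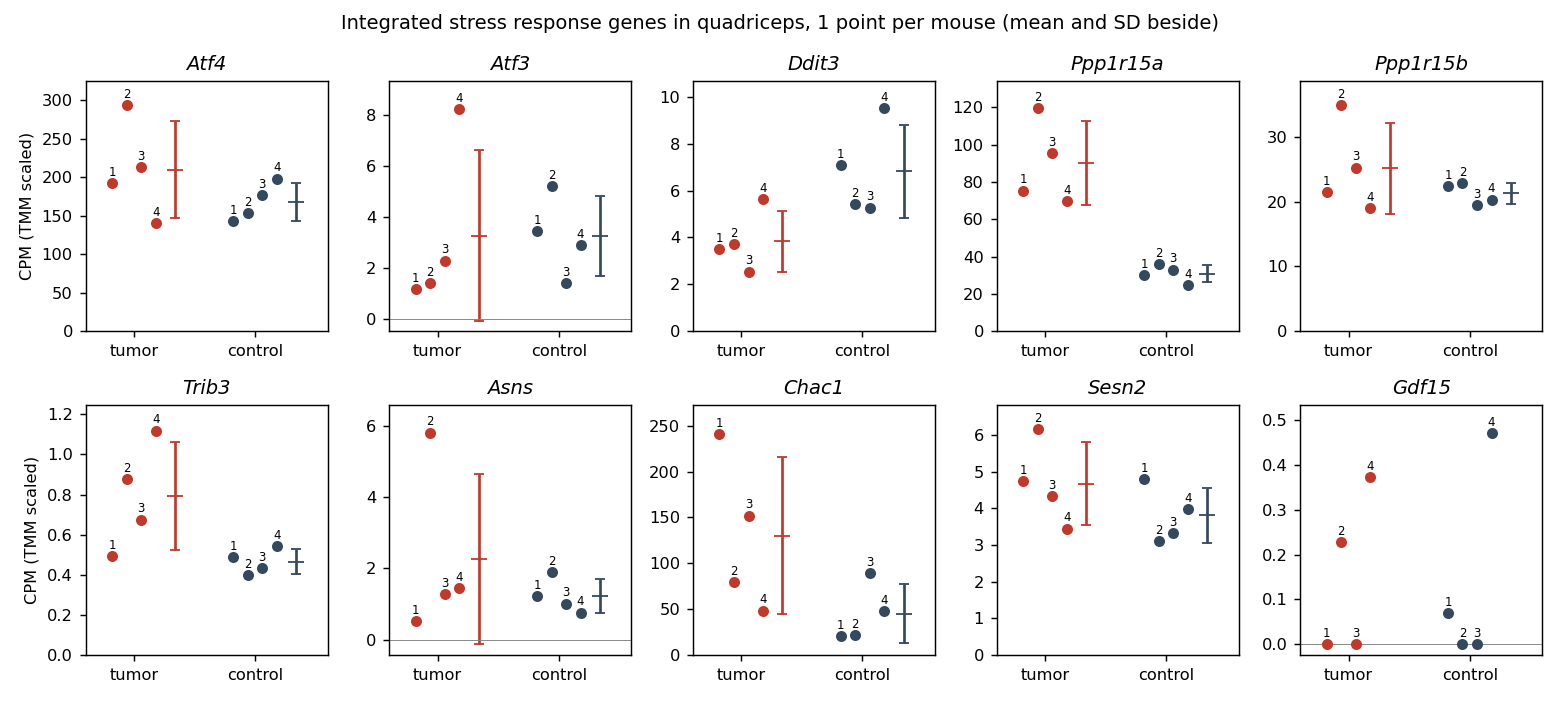
CPM (TMM scaled, linear axis) of the 10 members in each of the 4 tumor (left) and 4 control (right) libraries, with library numbers, and the mean and SD beside them (left out for Gdf15, which lay at 0 in 4 libraries). Ppp1r15a runs from 69.8 to 119 CPM in tumor and 24.8 to 35.8 CPM in control mice, with no overlap, and every other member overlaps.

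Ppp1r15a encodes GADD34, the inducible subunit that directs protein phosphatase 1 to eIF2 and so ends the block of translation. It had 75.4, 119, 95.5 and 69.8 CPM in tumor mice, against 30.1, 35.8, 33.0 and 24.8 CPM in controls. The lowest tumor mouse lay above the highest control, and no library of either group stood far from the rest. The mean was 90.0 ± 22.5 CPM in tumor and 30.9 ± 4.72 CPM in control mice (SD, n = 4 each). The log2 fold change was 1.54 ± 0.19 (SE), a rise of 2.91-fold. Its adjusted p of 0.00294 (edgeR) ranked 63 among the 14070 genes. It passed under all 17 alternatives, with folds between 2.42 and 3.11. In the annotation used (GENCODE M21), the only exon bases that Ppp1r15a shared with another gene were 12 bases of Tulp2, which had 0 counts in all libraries.

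Ppp1r15b encodes CReP, the constitutive partner of the same phosphatase. It had 21.5, 34.9, 25.3 and 18.9 CPM in tumor mice, against 22.4, 22.9, 19.4 and 20.3 CPM in controls. The highest and the lowest of the 8 values were both tumor mice, so the control range lay inside the tumor range. Its log2 fold change was 0.24 ± 0.18 (95% interval -0.17 to 0.65, adjusted p = 0.377, edgeR). A transcript on the opposite strand, Gm26616, shares 640 exon bases with it, with 0 to 14 counts a library. Taken within each library, counts of Ppp1r15a were 3.42 to 3.78 times those of Ppp1r15b in tumor mice and 1.22 to 1.70 times in controls. The log2 ratio was 1.85 ± 0.066 in tumor and 0.53 ± 0.22 in control mice (SD, n = 4 each), a difference of 1.32. Tumor mice were nearly alike in this ratio although both genes varied among them.

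Ratios within a library do not depend on scaling, and 9 were computed: the other 8 tested members over Atf4, and Ppp1r15a over Ppp1r15b. The two-sided exact permutation p was 0.0286 for Ppp1r15a over Ppp1r15b, the smallest that 4 against 4 allows, and 0.129 after Benjamini-Hochberg adjustment over the 9 ratios. The ratio of Ppp1r15a to Atf4 also separated the groups (log2 difference 1.23, exact permutation p = 0.0286, adjusted p = 0.129), and the other 7 ratios overlapped between groups.

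**Figure D2:**
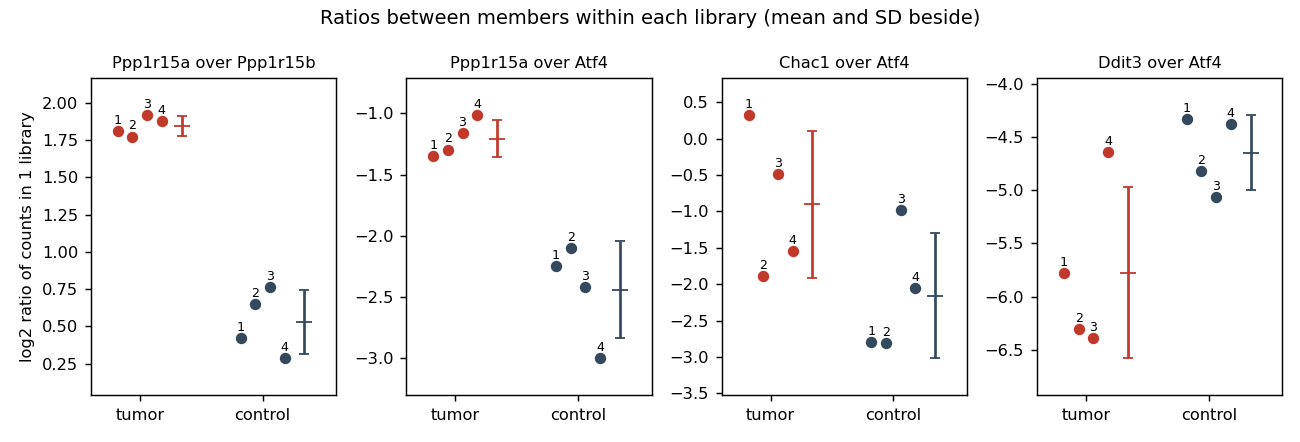
Log2 ratio of counts of 2 members within each library for tumor (left) and control mice (right), with library numbers, and the mean and SD beside them. Ppp1r15a over Ppp1r15b lies between 1.77 and 1.92 in tumor mice and between 0.29 and 0.76 in controls, while the ratios of Chac1 and Ddit3 to Atf4 overlap.

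The gene of the master factor, Atf4, was the most abundant member per length, with 176 CPM per kilobase in tumor and 141 CPM per kilobase in control mice (mean level over the median protein-coding transcript length). It had 192, 294, 214 and 141 CPM in tumor mice, against 143, 154, 177 and 198 CPM in controls. Tumor library 2 was the highest and tumor library 4 the lowest of all 8. Its log2 fold change was 0.32 ± 0.21 (95% interval -0.15 to 0.80, adjusted p = 0.312, edgeR). It passed under none of the 17 alternatives, with adjusted p from 0.101 to 0.752.

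Ddit3 encodes CHOP, a factor downstream of ATF4 that is known for promoting cell death under prolonged stress. It had 3.49, 3.70, 2.54 and 5.63 CPM in tumor mice, against 7.07, 5.43, 5.27 and 9.53 CPM in controls. Tumor libraries 1 to 3 lay below every control and tumor library 4 lay just above the lowest controls. The mean was 3.84 ± 1.29 CPM in tumor and 6.82 ± 1.98 CPM in control mice (SD, n = 4 each). Its log2 fold change was -0.83 ± 0.28 (SE), 1.77-fold lower in tumor mice, and did not pass (adjusted p = 0.0657, edgeR). It was called lower without tumor library 4 (-1.08, adjusted p = 0.0258), by DESeq2 (adjusted p = 0.0295), with upper-quartile scaling (adjusted p = 0.05 after rounding) and with the replicate number as a block (adjusted p = 0.0294). Under the other 13 of the 17 alternatives it did not pass. The log2 fold change was -0.62 without control library 4 (adjusted p = 0.154, edgeR). With the log2 Myh4 ratio as a further term, added once the data had been seen, it was -0.61 (adjusted p = 0.126, edgeR). Ddit3 shares 68 exon bases with Mars on the opposite strand, and the strand setting of the counting is not given in the sources used here, so a part of its few counts is uncertain.

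Atf3 encodes a factor of the same bZIP family that is induced by many stresses and acts mainly as a repressor. It had 1.15, 1.40, 2.28 and 8.21 CPM in tumor mice, against 3.45, 5.19, 1.39 and 2.90 CPM in controls. Tumor library 4 was the highest of all 8, and the other 3 tumor mice lay in the lower part of the control range or below it. The log2 fold change was 0.02 ± 0.63 (95% interval -1.39 to 1.43, adjusted p = 0.986, edgeR) and -1.01 without tumor library 4 (adjusted p = 0.155). Tumor library 4 also held the highest summed leukocyte markers (91.7 CPM, against 22.0 to 78.6 CPM in the other tumor mice and 32.3 to 64.0 CPM in controls; 6 of 9 markers tested) and the highest level of Hspa5, the main chaperone of the endoplasmic reticulum (315 CPM, against 102 to 132 CPM in the other tumor mice and 111 to 146 CPM in controls). Their part in the Atf3 value was not tested. Immediate early genes, like Atf3, respond within minutes to handling and stimulation. Of 11 tested, 2 rose (18.2%, Klf6 and Myc, named after their values were seen) and 0 fell, against 11.0% and 8.73% of all tested genes. The summed level of the listed immediate early genes was 158 to 209 CPM in tumor and 132 to 258 CPM in control mice.

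Chac1 encodes an enzyme that degrades glutathione and is among the most specific targets of ATF4. It had 241, 79.2, 152 and 48.4 CPM in tumor mice, against 20.5, 21.9, 89.2 and 47.7 CPM in controls. Tumor mice were higher in 14 of the 16 pairs of a tumor and a control mouse, and control library 3 exceeded tumor libraries 2 and 4. The gene varied more within groups than the other members with more than a few CPM: the highest mouse was 4.99 times the lowest among tumor and 4.34 times among control mice, against 1.71 and 1.45 times for Ppp1r15a. The mean was 130 ± 85.9 CPM in tumor and 44.8 ± 32.1 CPM in control mice (SD, n = 4 each). Its log2 fold change was 1.54 ± 0.58 (SE), with an SE that exceeded the 0.19 of Ppp1r15a, and it did not pass (adjusted p = 0.0893, edgeR). It passed without control library 3 (2.12, adjusted p = 0.0423) and under none of the other 16 alternatives. Within each group the mouse with the highest Chac1 level had the highest Myh4 share (98.9% in tumor library 1 and 98.0% in control library 3). The lowest Chac1 level of each group was not in the mouse with the lowest share. The part of fibre type in the Chac1 values was not tested. In a fit with the log2 Myh4 ratio as a further term, which was added once the data had been seen, the log2 fold change of Chac1 was 1.12 (adjusted p = 0.175).

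**Figure D3:**
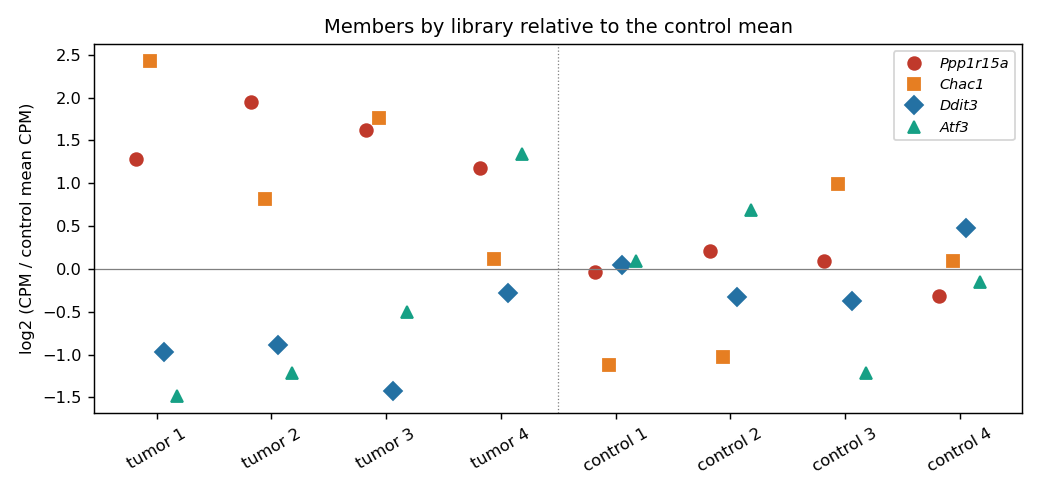
Log2 of CPM over the mean control CPM for 4 members in each library, tumor mice on the left and control mice on the right. Ppp1r15a lies above 0 in all tumor mice and Ddit3 below it, Chac1 lies above 0 in all tumor mice and in 2 controls, and Atf3 is above 0 among tumor mice in library 4 alone.

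The remaining targets were low. Asns, the enzyme that makes asparagine and a classic target of the amino acid branch, had 0.53, 5.81, 1.29 and 1.44 CPM in tumor mice, against 1.22, 1.89, 1.01 and 0.76 CPM in controls. Tumor library 2 was the highest and tumor library 1 the lowest of the 8. The log2 fold change was 0.89 ± 0.65 (adjusted p = 0.365, edgeR) and -0.20 without tumor library 2 (adjusted p = 0.79). Tumor library 2 was also the tumor mouse with the highest summed adipocyte markers (646 CPM, against 81.6 to 134 CPM in the other tumor mice and 169 to 720 CPM in controls; 4 of 4 markers tested), and their part in the Asns value was not tested.

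Trib3 encodes a pseudokinase that is induced by ATF4 and CHOP and restrains the kinase AKT. It had 0.49, 0.88, 0.67 and 1.12 CPM in tumor mice, against 0.49, 0.40, 0.43 and 0.54 CPM in controls, from 15 to 39 and 12 to 15 counts a library. Tumor mice were higher in 15 of 16 pairs, and only tumor library 1 fell inside the control range. Its log2 fold change was 0.76 ± 0.37 (95% interval -0.07 to 1.60, adjusted p = 0.176, edgeR). Sesn2, a sestrin that senses leucine and restrains mTORC1, had 4.74, 6.17, 4.34 and 3.44 CPM in tumor mice, against 4.80, 3.11, 3.33 and 3.99 CPM in controls. The groups overlapped in most of their range (log2 fold change 0.30 ± 0.23, 95% interval -0.22 to 0.81, adjusted p = 0.395, edgeR).

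Gdf15 encodes a stress cytokine that lowers food intake through a receptor in the brainstem. It had 0, 7, 0 and 13 counts in tumor mice, against 2, 0, 0 and 13 counts in controls, and was removed by the filter on low counts. In the 4 libraries at 0, a count of 0 allows a level of up to 0.0868 to 0.0992 CPM (3 counts per library, counting error only). Without the filter its adjusted p was 0.951 over 25972 genes (edgeR). No difference was detectable at this depth.

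**Figure D4:**
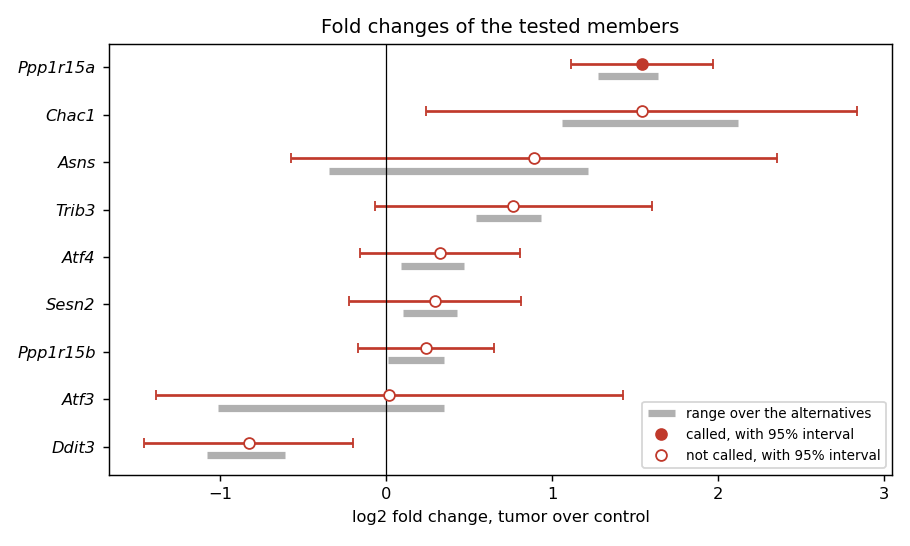
Log2 fold change of tumor over control for the 9 tested members with its 95% interval (filled, adjusted p under 0.05; open, not), and as a grey bar the range of the estimate over the alternatives. Ppp1r15a has an interval of 1.11 to 1.97, Chac1 of 0.24 to 2.83 and Ddit3 of -1.46 to -0.20, and the other 6 intervals include 0.

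Other genes of the pathway, and genes related to the members by family or by name alone, were examined through lists of 99 distinct genes. Of the 99, 92 were tested. Of the tested genes of these lists, 22 rose and 3 fell (23.9% and 3.26%), against 11.0% and 8.73% of all tested genes, and the median log2 fold change was 0.23. The lists were chosen with earlier results of these data known, so these shares are a description and not a test. Leaving out a library gave 14 and 7 (tumor 2), 10 and 1 (tumor 3), 18 and 5 (tumor 4), 10 and 0 (control 1 or control 2) and 11 and 3 (control 3).

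The eIF2 and eIF2B complexes receive the signal of the kinases. Of their 8 subunits, 5 rose and 0 fell (62.5% and 0%), against 11.0% and 8.73% of all tested genes. All 8 had positive fold changes (0.30 to 0.85 on the log2 scale) and the list median was 0.47. Eif2s2, the beta subunit of eIF2, averaged 307 ± 50.1 CPM in tumor and 171 ± 17.7 CPM in control mice (SD, n = 4 each), a rise of 1.80-fold (adjusted p = 0.00671, edgeR). Eif2b5, the catalytic subunit of the exchange factor, rose 1.53-fold (adjusted p = 0.00981), Eif2b1, its regulatory alpha subunit, 1.58-fold (adjusted p = 0.0144) and Eif2s3x, the gamma subunit of eIF2, 1.35-fold (adjusted p = 0.0198). The count was 2 without tumor library 3, and 3 without control library 1, 2 or 3. Eif2b1 did not pass without tumor library 3 (adjusted p = 0.0507), nor Eif2s3x without tumor library 3 or control libraries 1, 2 or 3 (adjusted p from 0.0518 to 0.0658).

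Of 8 genes of eIF2 kinases and their sensors, 2 rose and 0 fell (25% and 0%), against 11.0% and 8.73% of all tested genes (median log2 fold change 0.19). Gcn1, the ribosome-bound activator of the amino acid sensing kinase GCN2, had 89.5, 148, 136 and 119 CPM in tumor mice, against 49.1, 47.5, 49.5 and 61.2 CPM in controls. The groups were clearly apart, and the rise of 2.38-fold (adjusted p = 0.00355, edgeR) passed under all 17 alternatives. Eif2ak1, the haem and mitochondrial stress kinase HRI, rose 1.24-fold (74.8 ± 3.89 CPM in tumor and 60.5 ± 1.39 CPM in control mice, adjusted p = 0.0491), and passed in none of the 8 fits without 1 library (adjusted p from 0.0544 to 0.139). Without tumor library 4, 1 gene of the list was lower. The kinase genes Eif2ak3 (PERK) and Eif2ak4 (GCN2) had log2 fold changes of -0.38 ± 0.20 (adjusted p = 0.202) and 0.33 ± 0.24 (adjusted p = 0.372). Both were named after their values were seen. The catalytic subunits of the phosphatase that Ppp1r15a recruits did not pass: the log2 fold change was 0.36 ± 0.12 for Ppp1ca (adjusted p = 0.053, and 0.0384 without tumor library 2) and for Ppp1cb 0.23 ± 0.12 (adjusted p = 0.186). For Ppp1cc, named after its values were seen, the log2 fold change was 0.02 ± 0.12 (adjusted p = 0.938, edgeR). In that list of 5 genes 0 rose and 0 fell by edgeR, 1 of 5 had an unadjusted p under 0.05 (35.0% of all tested genes) and DESeq2 called 1.

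Among 13 tested partners and relatives of ATF4, 3 rose and 0 fell (23.1% and 0%), against 11.0% and 8.73% of all tested genes (median 0.09). Cebpd, a C/EBP factor of the acute phase, averaged 101 ± 57.8 CPM in tumor and 8.27 ± 4.06 CPM in control mice (SD, n = 4 each), a rise of 12.2-fold (adjusted p = 0.00613, edgeR). Tumor library 4 had only 16.7 CPM, against 113 to 142 CPM in the other tumor mice and 4.39 to 13.4 CPM in controls. Nfe2l2, the antioxidant factor NRF2, rose 1.68-fold (adjusted p = 0.0314) and Jun by 0.59 on the log2 scale (adjusted p = 0.0413), both with overlapping groups. The count was 1 without tumor library 3 or control libraries 1, 2 or 3, and 5 without control library 4, and 1 gene was lower without control library 3. Nfe2l2 did not pass without tumor libraries 2 or 3 or control libraries 1, 2 or 3 (adjusted p from 0.0703 to 0.0993), nor Jun without tumor libraries 1, 2 or 3 or control libraries 1, 2 or 3 (adjusted p from 0.0585 to 0.118).

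Of 12 tested enzymes of serine, glycine, proline and one-carbon synthesis, 0 rose and 0 fell by edgeR, with 3 of 12 at an unadjusted p under 0.05 (35.0% of all tested genes), 0 higher and 3 lower by DESeq2 and 0 higher and 2 lower by limma-voom, and a median log2 fold change of -0.24. Psph, the last enzyme of serine synthesis, had 3.85 ± 1.53 CPM in tumor and 7.41 ± 0.93 CPM in control mice without overlap (log2 fold change -0.94 ± 0.30, adjusted p = 0.0506, edgeR). It passed as lower under 10 of 17 alternatives, among them the fits that left out tumor 1 (adjusted p = 0.0316) or tumor 2 (adjusted p = 0.0241). For Aldh1l2, a mitochondrial folate enzyme, the log2 fold change was -1.18 ± 0.43 (adjusted p = 0.0822; 0.0112 without tumor library 2). Without tumor library 2 the list had 4 lower genes, and without tumor library 1 it had 1.

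Of 8 tested amino acid transporters, 3 rose and 1 fell (37.5% and 12.5%), against 11.0% and 8.73% of all tested genes (median 0.15). Slc43a1, a transporter of branched-chain amino acids, averaged 47.3 ± 25.6 CPM in tumor and 14.1 ± 3.66 CPM in control mice (3.35-fold, adjusted p = 0.0374, edgeR). Tumor library 4 had 9.10 CPM, inside the control range of 8.67 to 16.2 CPM. The glycine carrier Slc6a9 rose 2.25-fold (adjusted p = 0.0433), the shared heavy chain Slc3a2 rose 1.32-fold (adjusted p = 0.0433) and the glutamine carrier Slc38a2 fell 1.51-fold (adjusted p = 0.0396). The groups overlapped in Slc43a1, Slc6a9 and Slc38a2 but not in Slc3a2. The higher count was 0 without tumor libraries 2 or 3 or control libraries 1 or 2 and 1 without tumor library 4 or control libraries 3 or 4, and the lower count was 0 without any of tumor libraries 1, 3 or 4 or control libraries 1, 2 or 3. Slc43a1 passed only without tumor library 4 among these 8 fits (elsewhere adjusted p from 0.0642 to 0.109), Slc3a2 only without tumor library 1 (adjusted p from 0.0541 to 0.132), Slc6a9 without tumor library 1 or control libraries 3 or 4 (elsewhere adjusted p from 0.0745 to 0.117) and Slc38a2 without tumor library 2 or control library 4 (elsewhere adjusted p from 0.0669 to 0.119).

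Of 14 tested further targets of ATF4 or CHOP, 6 rose and 2 fell (42.9% and 14.3%), against 11.0% and 8.73% of all tested genes (median 0.74). Eif4ebp1, the repressor of cap-dependent translation 4E-BP1, had 121, 270, 240 and 211 CPM in tumor mice, against 32.9, 38.3, 49.4 and 48.9 CPM in controls. The lowest tumor mouse lay well above the highest control (4.96-fold, adjusted p = 0.00233, edgeR). Ddit4, an inhibitor of mTORC1, had 37.7, 65.9, 18.2 and 8.04 CPM in tumor mice, against 1.64, 2.71, 1.97 and 3.66 CPM in controls, a rise of 13.0-fold (adjusted p = 0.00508) that was 8.36-fold without tumor library 2. Sqstm1, the autophagy receptor p62, rose 1.97-fold (adjusted p = 0.00804) and Stc2, a secreted glycoprotein, 3.12-fold (adjusted p = 0.00916). These 4 passed under all 17 alternatives. The lower genes, named after their values were seen, were the stress cofactor gene Nupr1 (1.81-fold, adjusted p = 0.0287) and the phosphatase gene Dusp8 (1.98-fold, adjusted p = 0.0191). The lower count was 1 without tumor library 3, tumor library 4 or control library 4, and 0 without control library 1 or 2. Several of these targets are also known to respond to FOXO factors or the glucocorticoid receptor.

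The ATF6 and XBP1 arms of the unfolded protein response run beside the PERK branch. Of 18 genes of these arms, 2 rose and 0 fell (11.1% and 0%), against 11.0% and 8.73% of all tested genes (median 0.27). Dnajb9, a co-chaperone, rose 1.58-fold (45.3 ± 10.9 CPM in tumor and 28.7 ± 2.67 CPM in control mice, SD, n = 4 each, adjusted p = 0.0257, edgeR) and the factor gene Xbp1 1.65-fold (59.9 ± 20.4 and 36.2 ± 1.27 CPM, adjusted p = 0.0415). The count was 0 without control library 1, 2 or 3 and 1 without tumor library 2, 3 or 4, and 2 genes were lower without tumor library 4. Dnajb9 did not pass without control libraries 1, 2 or 3 (adjusted p from 0.0611 to 0.0853), and Xbp1 passed only without tumor library 1 among the fits without 1 library (elsewhere adjusted p from 0.0516 to 0.101).

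**Figure D5:**
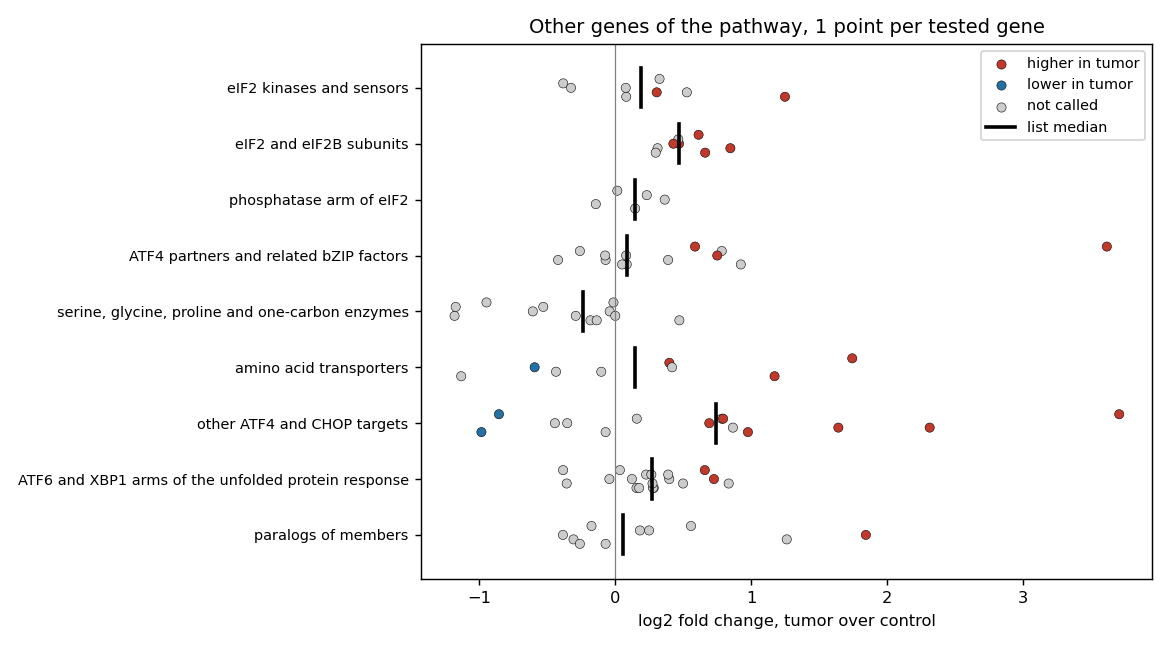
Log2 fold change of tumor over control for each tested gene of the 9 pathway lists, 1 point per gene, red where it was higher, blue where lower and grey where it did not pass, with the list median as a black line. All 8 eIF2 and eIF2B subunits lie above 0, and the serine, glycine, proline and one-carbon enzymes have a median of -0.24.

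The genes with the profile most like that of each member over the 8 libraries were found among 11133 named genes with a mean of at least 1 CPM, by the root mean square distance between log2 CPM values centred on each gene's own mean. For Ppp1r15a these were Slc15a4 (0.19 log2 units), a lysosomal transporter of peptides and histidine, and Zcchc24 (0.19), where the spread of Ppp1r15a itself was 0.80. The nearest profiles to Chac1 lay farther away, at 0.55 for Selp and 0.56 for Klhl38, against its own spread of 1.17. Atf4 was closest to Svil (0.080) and Zfp398 (0.081; own spread 0.33), Ppp1r15b to Dido1 (0.069) and Nadk (0.088), Ddit3 to Arntl2 (0.15) and Slc38a6 (0.16), Sesn2 to Dgkh (0.12) and Tmem229b (0.14), and Trib3 to the proteasome gene Psmb2 (0.11) and Wdr46 (0.12). For Atf3 the nearest were Atp8a2 and H2bc6 (both 0.45) and for Asns Rgs2 (0.42) and Ticam1 (0.52), distances near those of Chac1. The distances are a description over 8 libraries, with no test.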

How the data were processed

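The authors deposited 1 table of estimated counts per gene symbol, with 1 column for each of 8 mice. Salmon 1.10.1, STAR 2.7.9a, Trim Galore 0.6.7, R 4.2.2, cutadapt 3.4 and build GRCm39 are named in the submitters' processing notes. The sources used here do not give what each tool did, the annotation or the strand setting. Per the labels, the RNeasy Mini kit gave the RNA and the Universal Plus mRNA-Seq kit the libraries. 

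Counts were rounded to whole numbers, and genes were kept by filterByExpr (minimum count 10), which left 14070 of 25972 symbols with a count. Differences were tested with edgeR 4.0.16 (R 4.3.3) on TMM factors in a two-sided comparison with no term but group. A positive fold change means higher in tumor mice. Each SE is the log2 fold change over the root of its F statistic. On counts simulated for 14070 genes, 32% of 100 genes changed 2-fold and 83% of 100 changed 4-fold were called, 0 with the wrong sign. No other genes were changed there, and 119 were called in all, against 2781 in the data. The adjustment for many genes was thus stricter in the simulation, and these shares do not give the power for the members. Alternatives were other scalings and filters, DESeq2 1.42.0, limma-voom (limma 3.58.1), fits without 1 library or without tumor library 2 and control library 4, the replicate number as a block and a fibre covariate added after seeing the data. Within a group, no pair of libraries agreed within sampling noise.

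The members, lists and ratios were chosen with earlier results of these data known. All 10 members are named; of each pathway list the up to 4 genes that passed with the smallest p, or 2 where none passed; and for each tested member the 2 genes with the closest profile. The listed symbol Cars1 was matched as Cars through RefSeq synonyms. Promoter stretches are from RefSeq (GRCm38.p6), and transcript lengths and overlaps from GENCODE M21, both of another build than the counts. No table column was left unmapped.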

Additional observations from a re-analysis of the deposited data

Results flagged for a closer look

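In 2 of the 20 sets of 4 values (10 members in each group), 1 mouse lay far from the other 3 by Dixon's criterion, which chance meets in about 1 of 20 sets. Atf3 had 8.21 CPM in tumor library 4, where the nearest other tumor mouse had 2.28 CPM. Gdf15 had 0.471 CPM in control library 4, from 13 counts, where the nearest other control had 0.0696 CPM.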

How the results depend on the processing

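Of 152 repeats of the 9 member results under up to 17 alternatives, 137 kept their direction and their side of the threshold. Trib3 and Asns were removed by the stricter filter, which left 7 members. The 152 still include an entry under Asns for that filter that is not a value of Asns, and it is not among the 137. The members higher in tumor mice numbered 1 throughout, except 2 without control library 3 (range 1 to 2 without 1 library), and those lower numbered 0, except 1 with upper-quartile scaling, 1 by DESeq2, 1 with the replicate number as a block and 0 to 1 without 1 library. Atf3 turned negative with upper-quartile scaling (-0.056), the stricter filter (-0.0019), limma-voom (-0.24), the replicate block (-0.30) and without single libraries (from -1.01 to 0.35). Asns turned negative without tumor library 2 and control library 4 together (-0.34) and without single libraries (from -0.20 to 1.22). The entry under Asns for the stricter filter (-0.16) is the one that is not a value of Asns, so it shows no change of direction. The causes were not tested.

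Without 1 library the pathway genes numbered 10 to 20 higher and 0 to 7 lower (21 and 8 without tumor library 2 and control library 4), and all tested genes 630 to 1551 higher and 480 to 1450 lower. With the replicate number as a block they were 13 higher pathway genes and 1014 higher genes in all. Lower pathway genes numbered 6 by DESeq2, 5 by limma-voom and 5 with the fibre covariate. Same-numbered mice shared only a number: the correlations of their deviations were 0.028, 0.13, 0.20 and 0.016 over the 4 numbers, and only tumor libraries 2 and 3 correlated best with their own number. Trib3, with 12 to 39 counts a library, and Gdf15, with 0 to 13, rest on few counts.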

Other observations

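Among 10 genes listed as related to the members by family or by name alone, 1 rose and 0 fell (10% and 0%). Of all tested genes, 11.0% rose and 8.73% fell. Gadd45a, a growth arrest and DNA damage gene that shares the GADD name with Ppp1r15a (GADD34) but not its family, averaged 60.3 ± 9.31 CPM in tumor and 16.8 ± 5.32 CPM in control mice (SD, n = 4 each), a rise of 3.59-fold (adjusted p = 0.00294, edgeR) that passed under all 17 alternatives. The count was 2 without tumor library 4, where 1 was lower. The sestrin Sesn1 had 44.1, 93.0, 58.6 and 16.9 CPM in tumor mice, against 18.9, 24.6, 24.4 and 20.8 CPM in controls. Tumor libraries 1 to 3 lay above and tumor library 4 below every control (log2 fold change 1.26 ± 0.40, adjusted p = 0.0536), and Sesn1 was named after its values were seen.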
